A study of Mus musculus with 123 samples.

Results

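The cells described here were single sensory neurons from dorsal root ganglia (DRG) of the uninjured side, taken 3 days after the opposite sciatic nerve was cut, and divided by their level of Mrgprd. The rule was applied to the authors' table without outlier cells. Each value was divided by the cell's total and multiplied by 1000000 to give counts per 1000000 (CPM), and a cell was called Mrgprd-high at 100 CPM of Mrgprd or more. It found 6 Mrgprd-high cells among the 18 control-side day-3 cells, a share of 33.3%. The exact binomial 95% interval, 13.3% to 59.0%, assumes independent random draws of cells. These cells were not drawn so, and the interval covers no difference between animals. The authors picked small, medium and large neurons in almost equal numbers, and outlier cells were removed. The share therefore describes these cells only and is not the frequency of such neurons in the ganglion. The other 12 cells were those below 100 CPM. The series holds 106 cells after, and 117 before, removal of outliers.

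The study transected the right sciatic nerve (sciatic nerve transection, SNT) and compared single DRG neurons of the injured side with those of the contralateral side. All 18 cells came from 2-month-old F1 mice of a CAST/Eij male X C57BL/6 female cross. The paper names L3 to L5 DRG for the dissection but L5 for the sequenced neurons. The cells lay in DRG whose own nerve was not cut. Their animals had the operation on the other side and were killed 3 days later, so no cell came from an animal without surgery. Somata were dissociated by enzyme, picked by hand and amplified by Smart-seq2, a full-length poly-A method, then sequenced as 50 bp single reads. The labels name no animal for any cell. The 18 cells therefore count as 1 sample, and Mrgprd-high and other cells are 2 divisions of it. Every difference between the divisions is a description of these cells with no test. An SD over cells is the spread between cells and not an error over animals.

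Non-peptidergic nociceptors are unmyelinated neurons that end in the outer skin. They carry receptors for ATP and for glial-derived neurotrophic factors, bind the lectin IB4, and make little of the neuropeptides that peptidergic nociceptors release. Mrgprd, a Mas-related G protein coupled receptor that responds to beta-alanine, marks a major class of them. In development the transcription factor Runx1 moves these neurons to signalling through Ret.

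Mrgprd divided the cells with a wide gap. The 6 Mrgprd-high cells held 1781 CPM in cell 2, 1568 in cell 6, 2233 in cell 8, 1287 in cell 11, 2396 in cell 13 and 2099 in cell 21. Among the 12 other cells 7 were at 0, and the highest were cell 5 with 85.8 CPM, cell 19 with 21.6 CPM and cell 10 with 13.4 CPM. The cell just inside the limit was cell 11 and the cell just outside it was cell 5. A limit of 200 CPM kept the division, and a limit of 50 CPM moved cell 5 across it. These values chose the cells and are given as a description.

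**Figure D1:**
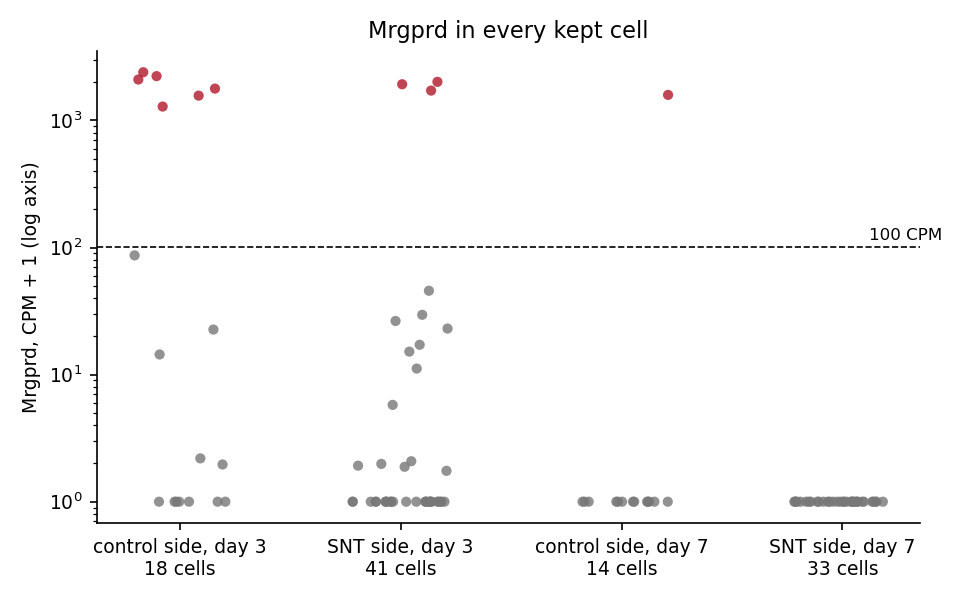
Mrgprd in every kept cell, as CPM + 1 on a log axis, by side and day, with 1 point per cell, a dashed line at 100 CPM and Mrgprd-high cells in red. On the control side at day 3 the 6 Mrgprd-high cells lie between 1287 and 2396 CPM and the 12 other cells at 85.8 CPM or below.

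Depth overlapped between the divisions but was not alike. The totals of the Mrgprd-high cells ran from 736619 to 1219416 expected counts, with a median of 916020. Those of the other cells ran from 277390.5 to 1368842, with a median of 760915. After each cell was thinned to a total of 277390, the Mrgprd-high cells had 10207 to 10635 genes above 0 (median 10378.5). The other cells then had 10237 to 11695 (median 11325.5). Transcripts of satellite glia and Schwann cells differed more. Their sum over 9 marker genes, without Pmp22 (which neurons also carried), was 22.6 to 368 CPM in the Mrgprd-high cells and 151 to 13092 CPM in the other cells. Of the 12 other cells 9 held 2621 CPM or more, and cells 5, 7 and 10 held 151 to 378 CPM. Apoe, the most abundant of these markers, was 20.2 to 281 CPM in Mrgprd-high and 75.7 to 10781 CPM in other cells. The part of glial RNA in the differences below was not tested, and results are also given against the 3 other cells low in glial transcripts where these changed a direction. None of the 8 immune markers and 1 of the 7 erythrocyte markers reached the level needed to be described.

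The other cells were not of 1 kind. They were ordered by genes chosen after the values were seen. The limits, taken in turn, were 500 CPM for Mrgpra3, 1000 CPM for Th and 10000 CPM for Calca. Cells 5 and 10 carried the itch receptor Mrgpra3 at 849 and 1112 CPM. Cells 4 and 7 carried Th, the enzyme that marks C-fibre low-threshold mechanoreceptors (C-LTMR), at 4804 and 4165 CPM. Cells 1, 12, 14, 15 and 19 carried Calca, which encodes the peptide CGRP, at 10704 to 18006 CPM. Cells 3, 9 and 18 passed none of these limits. They are named by Nefh, the heavy neurofilament of myelinated neurons, at 722 to 1575 CPM, although no level of Nefh was required. The cells are named below by these genes.

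Of 24134 genes, 9211 averaged 10 CPM or more over the 18 cells and were described. A gene was called when the ratio of mean CPM + 1, Mrgprd-high over other, was at least 2 in size on the log2 scale, that is 4-fold. This ratio understates differences of low genes. In all, 117 genes (1.270%) were called higher and 662 (7.187%) lower in Mrgprd-high cells, and the median log2 ratio over all 9211 was -0.05. By a second measure, the ranges over cells did not overlap for 123 genes (1.335%) that were higher and 70 (0.7600%) that were lower. Both measures held for 59 higher and 49 lower genes. Since the rule used the same cells, nothing is read from these shares. The counts for gene lists below are descriptions to set beside these shares, and a count near 1.270% higher or 7.187% lower says nothing particular of its list. Of the 8 described glial markers 7 were called lower, and so was the 1 described of 6 vessel and fibroblast markers.

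**Figure D2:**
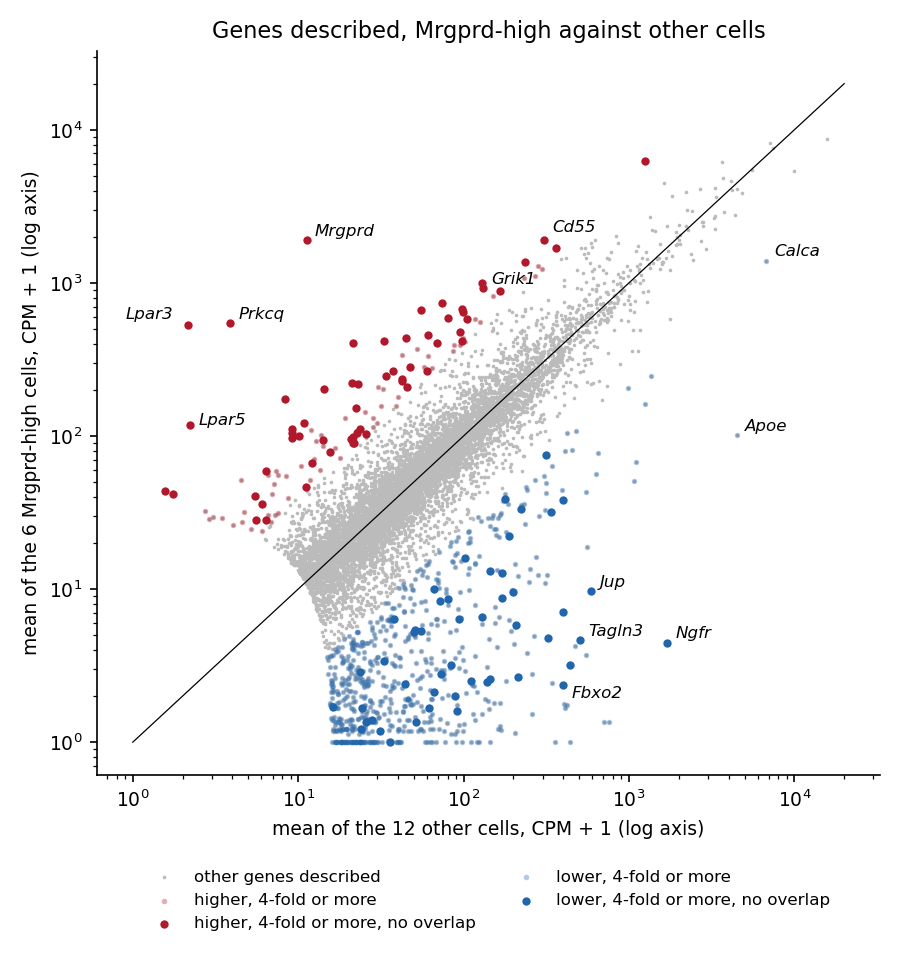
Mean level of each of the 9211 genes described, with the 12 other cells on the x axis and the 6 Mrgprd-high cells on the y axis, both as CPM + 1 on log axes. Mrgprd, Lpar3, Prkcq and Lpar5 lie far above the line of equal levels, and 662 genes called lower spread below it, with Ngfr farthest to the right among those that do not overlap.

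The count of lower genes followed which other cells were compared. Against the 3 other cells low in glial transcripts, 106 genes (1.151%) were called higher and 357 (3.876%) lower. Of the 117 genes called higher against all other cells 39 were also called against these 3, and of the 662 called lower 311 were. The 3 cells are 2 Mrgpra3-led cells and 1 Th-led cell, so they differ from the rest in kind as well as in glial transcripts, and the 2 cannot be told apart here.

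The genes with the largest ratios among those at 50 CPM or more in Mrgprd-high cells and without overlap began with signalling proteins at the membrane. Lpar3, a receptor for lysophosphatidic acid, was 529.6 ± 100.5 CPM (SD, n = 6 cells) in Mrgprd-high cells and 1.14 ± 2.49 CPM (n = 12 cells) in the others, a log2 ratio of 7.95. Its values were 597, 509, 586, 579.6, 335 and 572 CPM in cells 2, 6, 8, 11, 13 and 21. Cell 13 was the low cell, 9 of the 12 other cells were at 0, and the highest other cell was cell 19 with 7.2 CPM. Lpar5, a second receptor of that family of ligands, was 70.6 to 165 CPM in Mrgprd-high cells against 0 to 6.35 CPM in the others.

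Prkcq, the theta isoform of protein kinase C, stood as far apart, at 609, 568, 495, 409, 545 and 629.5 CPM in the same order of cells. In the other cells it had a lowest of 0, a median of 1.52 and a highest of 16.6 CPM, a log2 ratio of 7.1. No other cell came near, and the highest was Mrgpra3-led cell 10. Mrgprb5, another Mas-related receptor, was 159 to 264 CPM in Mrgprd-high cells. It was at 0 in 10 other cells and at 47.9 and 112 CPM in the 2 Mrgpra3-led cells, a log2 ratio of 3.83 (5.25 without cell 5).

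Others among these 15 genes were surface proteins, enzymes and channels. The receptor tyrosine phosphatases Ptprt and Ptprm had log2 ratios of 4.25 and 3.603. Sdc1, the heparan sulfate proteoglycan syndecan 1, had 4.39, and Cd44, a hyaluronan receptor, 3.597. Cd44 was 606 to 726 CPM in Mrgprd-high cells, a narrow range, against a lowest of 0, a median of 18.8 and a highest of 323 CPM in the others, where cell 5 was the high cell. Ggta1, which attaches the terminal alpha-galactose that IB4 binds, was 72.6 to 153 CPM against 0 to 55.2 CPM and was at 0 in the 2 Th-led and 3 Nefh-led cells. The G protein subunit Gnb4 had a log2 ratio of 3.65, the tandem-pore potassium channel Kcnk12 3.485, the nectin Pvrl1 3.409 and Ctxn3 3.321. With 1 other cell left out the ratios were 5.21 without cell 19 for Sdc1, 4.44 without cell 5 for Cd44, 4.42 without cell 10 for Ggta1 and 3.97 without cell 5 and 3.98 without cell 10 for Ctxn3.

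**Figure D3:**
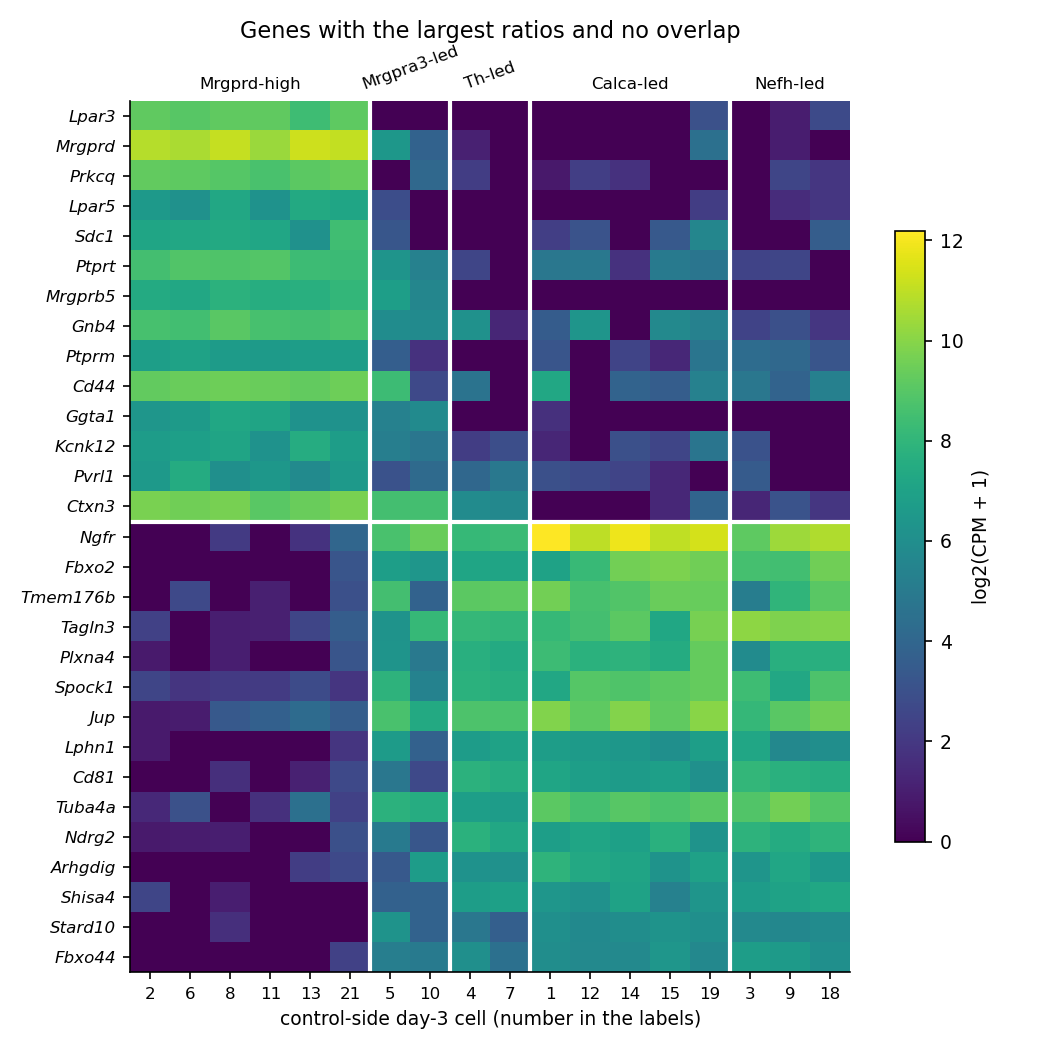
Level of genes named for the largest higher ratios (upper block) and the largest lower ratios (lower block) without overlap, as log2(CPM + 1), in the 18 control-side day-3 cells, which are grouped by division and leading gene. Mrgprd-high cells are bright in the upper block and dark in the lower one, and the Mrgpra3-led cells 5 and 10 come nearest to them in Mrgprb5, Ggta1 and Ctxn3.

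Mrgprd lies on chromosome 7 from 145314835 to 145324086 on the plus strand (GRCm38, GENCODE M21). The genes with the 4 largest ratios were Lpar3, Mrgprd, Prkcq and Lpar5. Their RefSeq promoter windows (GRCm38.p6) are shown because these genes were high in the same cells, and Runx1 is a known regulator of this cell class. Each run is the 250 bases before an annotated start, 5′ to 3′ on the gene's strand, and capitals mark the core RUNX motif, TGTGGT or TGCGGT, searched on both strands.
Lpar3, chr3:146220711-146220960, plus strand: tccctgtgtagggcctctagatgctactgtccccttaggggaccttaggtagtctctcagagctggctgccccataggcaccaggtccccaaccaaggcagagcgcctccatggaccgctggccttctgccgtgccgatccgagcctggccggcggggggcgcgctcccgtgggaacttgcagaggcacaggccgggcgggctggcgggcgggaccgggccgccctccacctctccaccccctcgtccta
Mrgprd, chr7:145314585-145314834, plus strand: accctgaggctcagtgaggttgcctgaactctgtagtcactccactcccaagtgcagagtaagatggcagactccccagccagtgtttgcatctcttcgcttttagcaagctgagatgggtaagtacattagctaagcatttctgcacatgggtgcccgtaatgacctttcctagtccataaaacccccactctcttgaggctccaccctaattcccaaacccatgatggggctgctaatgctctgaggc
Prkcq, chr2:11172132-11172381, plus strand: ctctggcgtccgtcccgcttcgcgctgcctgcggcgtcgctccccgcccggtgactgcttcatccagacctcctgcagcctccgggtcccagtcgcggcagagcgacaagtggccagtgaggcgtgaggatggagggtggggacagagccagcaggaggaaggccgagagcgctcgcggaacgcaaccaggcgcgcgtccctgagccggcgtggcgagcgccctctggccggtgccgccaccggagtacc
Lpar5, chr6:125067670-125067919, plus strand: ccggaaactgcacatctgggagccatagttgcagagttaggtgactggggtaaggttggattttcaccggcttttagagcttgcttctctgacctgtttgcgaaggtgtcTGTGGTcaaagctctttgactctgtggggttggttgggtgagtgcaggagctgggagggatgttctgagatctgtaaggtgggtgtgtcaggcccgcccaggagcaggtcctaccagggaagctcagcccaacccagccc
Lpar5, second start, chr6:125071085-125071334, plus strand: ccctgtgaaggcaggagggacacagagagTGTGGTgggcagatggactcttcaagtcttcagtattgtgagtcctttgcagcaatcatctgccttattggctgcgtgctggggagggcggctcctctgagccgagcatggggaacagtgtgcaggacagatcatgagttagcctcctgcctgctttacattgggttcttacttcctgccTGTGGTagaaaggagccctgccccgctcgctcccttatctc
Both Lpar5 windows held TGTGGT, once in the first and at 2 places in the second, and the other 3 windows held neither form. Of all 32851 windows of this length 18.6% held a match. Counted by gene, 20.9% of the 27025 genes with a window held a match in a window. Of the 15 genes with the largest higher ratios 11 had a window and 1 had a match, and of the 15 with the largest lower ratios 12 had a window and 2 had a match. A match is only a run of letters, and its absence from these windows says nothing on binding elsewhere.

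The lower genes were led by Ngfr, the low-affinity neurotrophin receptor that binds all neurotrophins. Ngfr was 3.469 ± 5.92 CPM (SD, n = 6 cells) in Mrgprd-high cells and 1691 ± 1405 CPM (n = 12 cells) in the others, a log2 ratio of -8.56. It was at 0 in cells 2, 6 and 11, at 3.2 CPM in cell 8, 2.39 in cell 13 and 15.2 in cell 21. In the other cells it had a lowest of 286, a median of 1499 and a highest of 4628 CPM, and the Calca-led cells held the highest values. The groups did not come near each other. Without cell 21 the log2 ratio was -9.64.

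The glial sums of the cells are given beside Ngfr, and their part in its level was not tested. In cells 5, 7 and 10, whose glial sums of 151 to 378 CPM overlap those of the Mrgprd-high cells, Ngfr was 312 to 683 CPM, a log2 ratio of -6.72. The 3 Mrgprd-high cells of the SNT side at day 3 held 3972 to 5365 CPM of glial transcripts and had Ngfr of 1.18, 7.66 and 0 CPM. Low Ngfr was not limited to Mrgprd-high cells in the other sets. Among SNT-side day-3 cells below the Mrgprd limit, Ngfr ran from 0.82 CPM in cell 24 to 6454 CPM in cell 31. Among such control-side day-7 cells it ran from 50.2 CPM in cell 8 to 2402 CPM in cell 11.

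**Figure D4:**
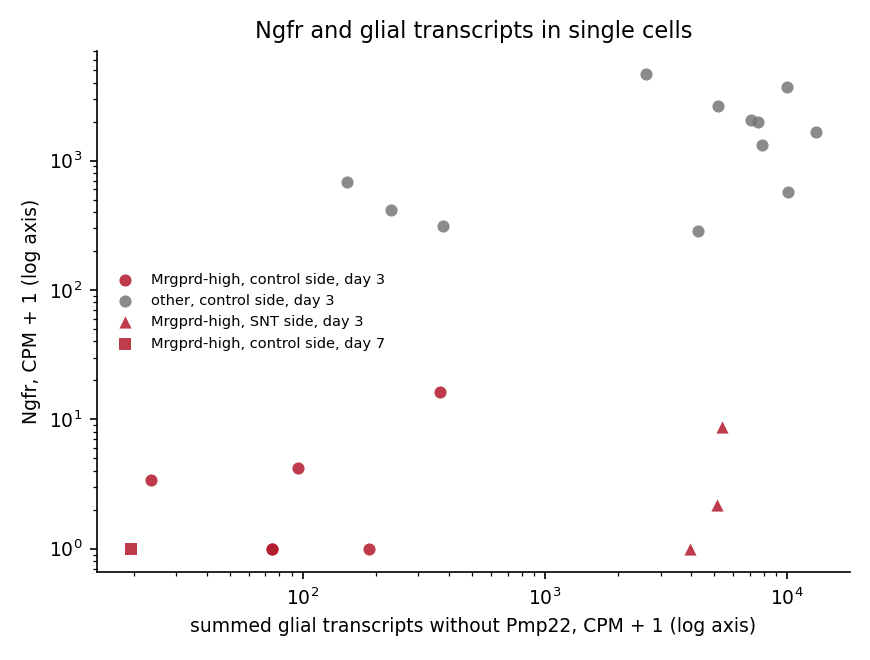
Ngfr against the sum of glial transcripts without Pmp22, both as CPM + 1 on log axes, with 1 point per cell for the 18 control-side day-3 cells and the Mrgprd-high cells of other sets. Ngfr is at 15.2 CPM or below in all Mrgprd-high cells shown, also in the 3 SNT-side cells with 3972 to 5365 CPM of glial transcripts, and at 286 CPM or above in all 12 other cells. Cells of the other sets below the Mrgprd limit are not shown, and some of them had Ngfr under 286 CPM.

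The other 14 of these genes served several roles. Fbxo2 and Fbxo44, F-box proteins of ubiquitin ligases, had log2 ratios of -7.41 and -5.20, and Fbxo2 was at 0 in 5 of 6 Mrgprd-high cells against 84.4 to 882 CPM in the others. Cytoskeletal genes included Tagln3 (-6.76) and the alpha tubulin Tuba4a (-5.81). Surface and junction genes included the semaphorin receptor Plxna4 (-6.32), the testican Spock1 (-6.08), plakoglobin Jup (-5.92), latrophilin Lphn1 (-5.84) and the tetraspanin Cd81 (-5.82). Tmem176b (-7.096), Ndrg2 (-5.81), the GDP dissociation inhibitor Arhgdig (-5.47), Shisa4 (-5.46) and the lipid carrier Stard10 (-5.26) completed the list. Against the 3 other cells low in glial transcripts all 15 stayed lower, from -6.72 for Ngfr to -4.17 for Fbxo44. Plxna4, Cd81 and Tuba4a overlap an exon of a gene on the opposite strand in GENCODE M21, and no source used here says that reads were counted by strand, so the members of such pairs cannot be separated. Without cell 21 the ratio was -8.64 for Fbxo2, -5.95 for Fbxo44, -7.273 for Plxna4 and -6.55 for Ndrg2, without cell 13 -6.62 for Tuba4a and without cell 2 -6.19 for Shisa4.

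Markers of non-peptidergic nociceptors were set against the label first. Of 16 markers, all described, 11 were called higher and 1 lower, with a median log2 ratio of 2.44 against -0.05 over all genes. Mrgprd itself is among the 11. P2rx3, the ATP-gated channel, was 1692 ± 137 CPM in Mrgprd-high cells and 359 ± 408 CPM in the others, with ranges of 1458 to 1882 CPM and 3.81 to 1030.0 CPM that did not overlap. Cd55, a complement regulator, was 1592 to 2238 CPM against 71.6 to 1456 CPM, and the 2 Mrgpra3-led cells were the high ones of the others. Grik1, a kainate receptor subunit, was 725 to 1025 CPM against 0 to 684 CPM, where the Th-led cells were high. Cd55 and P2rx3 overlap an exon of an opposite-strand gene. The log2 ratios of Cd55, Grik1 and P2rx3 were 2.65, 2.82 and 2.23. Leaving out 1 cell gave 3.257 without cell 10 for Cd55 and 3.53 without cell 4 for Grik1, and against the 3 other cells low in glial transcripts the ratios were 1.12, 1.88 and 1.55, under the limit.

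Several of these markers were shared with 1 kind of other cell. Gfra2, the neurturin co-receptor, was 563 to 863 CPM in Mrgprd-high cells, and the Th-led cells, at 1257 and 1262 CPM, were higher. Scn11a, a sodium channel, was 700.0 to 1593 CPM, within which both Mrgpra3-led cells lay. Plxnc1, a semaphorin receptor, had a mean of 548 CPM in Mrgprd-high cells and 659 in the 2 Mrgpra3-led cells. Ret, the receptor subunit that signals for Gfra2, had a log2 ratio of 0.92 and was 1283 CPM on average in Th-led cells. Ptgir, the prostacyclin receptor, was the only marker called lower, at 0 to 0.82 CPM against 0 to 417 CPM with the Calca-led cells highest on average, so 1 marker goes against the label. The ratio of Ptgir was -6.28, with -5.69 without cell 1, and that of Scn11a 2.03, with 2.63 without cell 5.

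Markers of other neuron classes were mostly lower. Of 11 described markers of peptidergic nociceptors 0 were called higher and 9 lower, with a median of -3.455. Kit, the stem cell factor receptor, was at 0 in all 6 Mrgprd-high cells and averaged 57.6 CPM in the others, at least 110.3-fold higher when 3 counts over the 6 cells are taken as the limit, or 69.1-fold without cell 9. Gfra3, the artemin co-receptor, had a log2 ratio of -5.06 (-3.424 without cell 15 and -5.99 without cell 21) and Trpv1, the capsaicin receptor, -3.455 (-2.45 without cell 1 and -4.42 without cell 11). Both lost the call with medians in place of means, at -1.10 and -0.11, and Gfra3 also with cell 5 counted as Mrgprd-high, at -1.23.

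The neuropeptide genes were not absent. Calca was 2329.9, 666, 904, 1832, 1200.4 and 1457 CPM in cells 2, 6, 8, 11, 13 and 21, a log2 ratio of -2.26. All 6 lay below the 5 Calca-led and 2 Mrgpra3-led cells and above both Th-led cells, which were at 0 and 9.68 CPM. Calcb, which encodes the beta form of CGRP, had a log2 ratio of 0.66 with a mean of 615 CPM in Mrgprd-high cells and 664 CPM in Calca-led cells. Tac1, the substance P precursor, was 20.2 to 237 CPM in Mrgprd-high cells.

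Genes of itch neurons and of touch neurons were counted next. Of 6 described itch markers 0 were called higher and 2 lower, namely Mrgprb4 and Mrgprx1, and the other 4 were not called. Mrgpra3 itself was 19.8 to 134 CPM in Mrgprd-high cells, above 8 of the other cells in its lowest value and below both Mrgpra3-led cells. Mrgprb4 averaged 5 CPM against 153, and the latter rested on cell 10 at 1821 CPM, since the median of the other cells was 0.482 CPM. Nmb, the neuromedin B precursor, had a log2 ratio of 0.55. Of 6 described C-LTMR markers 0 were called higher and 5 lower. Th was 0 to 1.36 CPM in Mrgprd-high cells, a log2 ratio of -9.11 that was -8.14 without cell 4, -8.35 without cell 7 and -0.79 with medians. Fam19a4, a secreted protein of C-LTMR, was 28.5 to 112 CPM in Mrgprd-high cells, and its median in the other cells was 1.18 CPM.

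Of 16 described markers of large myelinated neurons 0 were called higher and 12 lower, with a median of -2.91. Nefh was 41.9 to 83.6 CPM in Mrgprd-high cells and had a lowest of 6.48, a median of 449 and a highest of 1575 CPM in the others, where the 2 Th-led cells and cell 5 were lower than every Mrgprd-high cell. Against the 3 other cells low in glial transcripts its log2 ratio was 0.29 in place of -3.5, and that of Ldhb, a lactate dehydrogenase subunit, was 0.04 in place of -3.139. Scn1a, a sodium channel of large neurons, was at 0 in all 6 Mrgprd-high cells and averaged 122 CPM in the others, at least 234-fold higher, or 169-fold without cell 3. The calcium-binding protein Calb1 and the matrix link protein Hapln4 were also at 0 in all 6, and the mean of Calb1 in the others rested on cell 3, without which it was under the limit of 3 counts. The light and medium neurofilaments Nefl and Nefm were not called, with log2 ratios of -0.31 and -0.78.

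**Figure D5:**
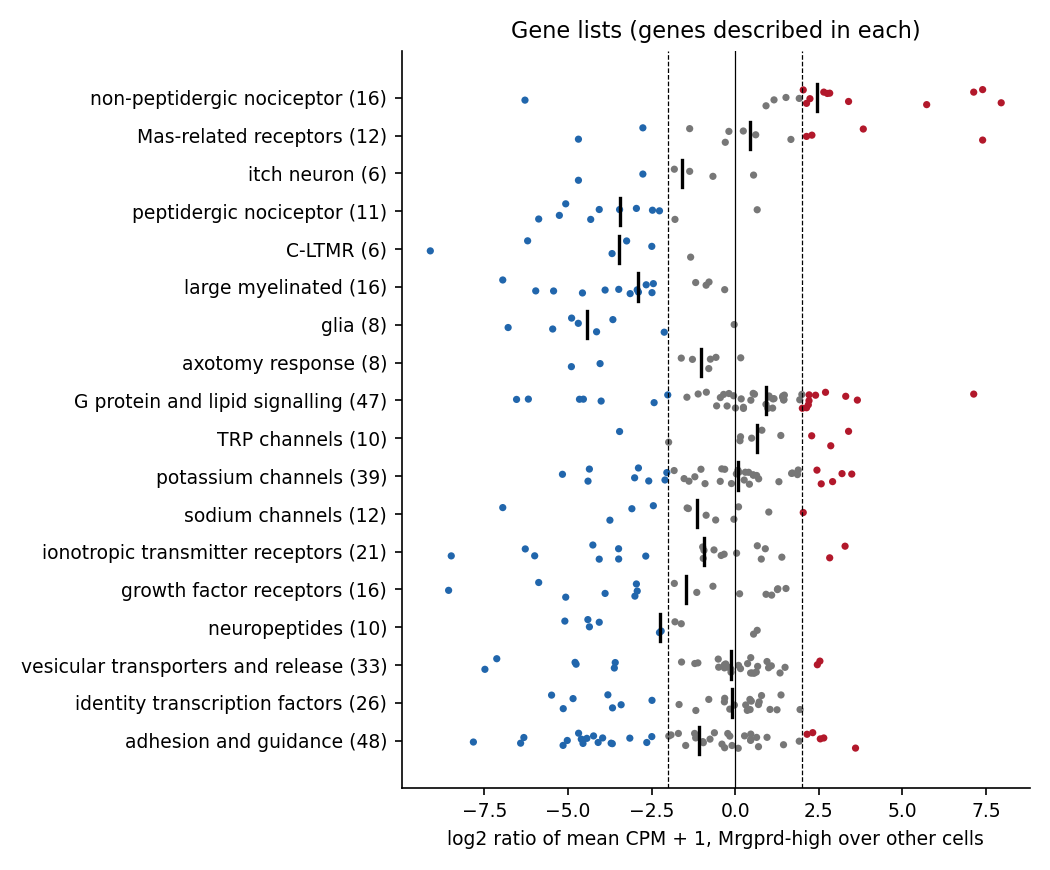
Log2 ratio of mean CPM + 1, Mrgprd-high over other cells, of each described gene in 18 gene lists, with 1 point per gene, the number described in parentheses, a black bar at each list's median and dashed lines at -2 and 2. Non-peptidergic markers have the highest median, 2.44, and glial markers the lowest, -4.42.

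Of 12 described Mas-related receptors 4 were called higher and 2 lower, and the list's median was 0.43. Beside Mrgprd and Mrgprb5, Mrgpra9 was 106 to 207 CPM against 0 to 134 CPM and Mrgpra6 47 to 75.5 CPM against 0 to 66.5 CPM. The 2 called lower, Mrgprb4 and Mrgprx1, were highest in the Mrgpra3-led cells, at means of 916 and 214 CPM. Without cell 5 the ratio of Mrgprx1 was -1.96 in place of -2.76, and with cell 5 counted as Mrgprd-high it turned to 0.70. Genes of this family resemble each other in sequence, and how the authors' estimate divided reads between them was not examined, so single members of the Mrgpra group are uncertain. Without cell 10 the ratio of Mrgpra6 was 2.78 in place of 2.13, and it lost the call with cell 5 counted as Mrgprd-high, at 1.81.

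The machinery behind such receptors was described for 47 genes of G protein and lipid signalling, of which 10 were called higher and 7 lower, with a median of 0.92. The phospholipase Plcb3 was 1075 to 1551 CPM against 0 to 1137 CPM, and the G protein alpha subunit Gna14 459 to 654 CPM against 0 to 602 CPM. In both, the 2 Mrgpra3-led cells were the high ones, with means of 972 and 464 CPM. Protein kinase C genes went in opposite directions. Prkcq, Prkca and Prkcd were higher, with log2 ratios of 7.1, 2.40 and 2.21, and Prkcb was lower, at -6.53 with a range of 0 to 1.37 CPM in Mrgprd-high cells.

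Phosphodiesterases and other regulators also differed by member. Pde10a had a log2 ratio of 3.304 and Pde1c of -6.18. With cell 5 counted as Mrgprd-high the ratio of Pde1c was -1.79, under the limit. Pde1c averaged 1.5 CPM in Mrgprd-high cells, 383 in Mrgpra3-led and 415 in Th-led cells. The regulators of G protein signalling Rgs3 (2.70) and Rgs7 (2.01) were higher without overlap. Adcy2, an adenylyl cyclase, was at 0 in all 6 Mrgprd-high cells and averaged 22.2 CPM in the others.

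Among 12 described sodium channel genes 1 was called higher and 4 lower. Scn10a, a tetrodotoxin-resistant channel of nociceptors, had a lowest of 2454, a median of 2659.5 and a highest of 2958 CPM in Mrgprd-high cells and a lowest of 10.2, a median of 1212 and a highest of 3112 CPM in the others. Its log2 ratio was 1.005, cell 10 was above every Mrgprd-high cell, and Nefh-led cells 3 and 18 were at 10.2 and 44.4 CPM. Scn9a, a tetrodotoxin-sensitive channel of DRG neurons, had a ratio of -0.04. Scn8a, the channel of nodes of Ranvier, was lower without overlap, 1.79 to 23.8 CPM against 31.6 to 379 CPM, and its highest values were in Nefh-led and Calca-led cells.

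Of 39 described potassium channel genes 5 were called higher and 8 lower. Kcnab1, a beta subunit, was 308 to 559 CPM against 0 to 228 CPM, Kcng3, a modifier subunit, 21.5 to 47.4 CPM against 0 to 14.4 CPM, and the channel-interacting protein Kcnip2 averaged 823 CPM against 150.5. Kcnc4 had a ratio of 3.193 (5.14 without cell 3), and among the others it was above 0 on average only in the Nefh-led cells, at 43.8 CPM. The silent subunit Kcnv1 (-5.16), Kcnh2 (-4.399) and Kcna1 (-2.89), a channel of myelinated axons, were lower. Of 12 calcium channel genes 0 were called higher and 1 lower, close to the share over all genes and no result about these channels. The 1 gene was the T-type channel Cacna1h, at 0 in all 6 Mrgprd-high cells and 167 CPM on average in Th-led cells, with a ratio of -5.14, or -4.43 without cell 7.

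Of 10 described TRP channels 3 were called higher and 1 lower. Trpa1, the receptor for pungent electrophiles, was 212 to 341 CPM against 0 to 293 CPM, where only cell 10 reached the Mrgprd-high range, and its ratio of 2.29 was 2.96 without that cell. Trpc6 had a ratio of 2.86, or 4.55 without cell 10. Of 10 mechanosensory and acid-sensing channels 2 were called higher and 3 lower. Asic3, a proton-gated channel, was at 0 in 5 Mrgprd-high cells and 1.36 CPM in cell 21, while 5 other cells were at 0 and the highest reached 584 CPM. Asic1 had a ratio of -5.39 (-6.01 without cell 8) and Asic2, which was not called, 1.33. Stom, which encodes the membrane protein stomatin, was 16.1 to 102 CPM against 0 to 12.8 CPM.

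Receptors for transmitters and mediators also divided by gene. Of 21 described ionotropic receptor genes 2 were called higher and 8 lower. Chrna6, a nicotinic subunit, was 279.7 to 653 CPM in Mrgprd-high cells and 0 to 202 CPM in the others. Chrna7 and Chrnb4, also nicotinic subunits, had ratios of -5.99 (-6.99 without cell 2) and -6.27. Htr3a, the serotonin-gated channel, was at 0 in all 6 Mrgprd-high cells and averaged 357 CPM in the others, at least 685-fold higher, or 408-fold without cell 15, with cells 14, 15 and 19 at 941 CPM or more. Of 24 other G protein coupled receptors 5 were called higher and 10 lower. Ptgdr, a prostaglandin D receptor, was 180.4 to 251 CPM against 0 to 66.4 CPM, Htr4, a serotonin receptor, had a ratio of 2.03, and Oprm1, the mu opioid receptor, -2.47. Of 7 purinergic receptors 1 was called higher and 3 lower, with P2rx3 higher and P2ry1, P2ry2 and Adora2b lower. The ratio of P2ry2 was -4.14, or -0.68 with cell 5 counted as Mrgprd-high, and that of P2ry1 -3.68, or -3.03 without cell 4, -2.83 without cell 7 and -1.02 with medians. Adora2b had -2.66, or -3.375 without cell 11, and with medians it turned to 0.75.

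Among 16 described growth factor receptors 0 were called higher and 7 lower. The neurotrophin receptors Ntrk2 (-3.89) and Ntrk3 (-2.93, or -3.71 without cell 8) joined Ngfr on the lower side. Lifr, the leukemia inhibitory factor receptor, was higher without overlap though not called, at 1902 to 2122 CPM against 508 to 1111 CPM.

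Of 10 described neuropeptide genes 0 were called higher and 6 lower, with a median of -2.24. Penk, the enkephalin precursor, had a ratio of -5.09 (-4.31 without cell 4, -4.42 without cell 7 and 0 with medians), Adcyap1, which encodes PACAP, -4.06 but -1.63 without cell 1 and -5.77 without cell 21, and Bdnf, a neurotrophin, -2.21. Bdnf was 13.7 to 70 CPM in Mrgprd-high cells, and against the 3 other cells low in glial transcripts its ratio turned to 1.92. Without cell 18 it was -1.68, and with medians 0.0237. Of 33 genes of vesicle transport and release 2 were called higher and 6 lower. Synpr, a synaptic vesicle membrane protein, was 1236 to 1586 CPM against 1.51 to 748 CPM, and Rab27b, a GTPase of vesicle docking, 475 to 734 CPM against 0 to 321 CPM. The calcium sensor Syt2 and the vesicle protein Sv2b had ratios of -7.48 and -7.126. Syt2 was above 0 in 1 Mrgprd-high cell and also at 0 in both Th-led and both Mrgpra3-led cells.

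Of 26 described transcription factors 0 were called higher and 7 lower. Runx1 was 166, 236, 233, 204, 222 and 187 CPM in cells 2, 6, 8, 11, 13 and 21, a ratio of 1.94 that was not called. The Th-led cells 4 and 7, at 283 and 179 CPM, were within or above that range and the 10 remaining cells were at 60.4 CPM or below. The nuclear factors Nfia (-5.49, or -6.17 without cell 11) and Nfib (-5.14) and Zeb2 (-4.85) were lower.

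Adhesion and guidance genes were the largest list, 48 described, of which 5 were called higher and 18 lower. Cd24a was 5223 to 6910.3 CPM against 80.4 to 3568 CPM, and the cadherins Cdh1 and Cdh11 had ratios of 2.54 and 2.15. Thy1, a surface glycoprotein of many neurons, had a ratio of -7.82. It was 0 to 2.72 CPM in Mrgprd-high cells, 1.06 to 2.92 CPM in the 4 Mrgpra3-led and Th-led cells and 316 to 1078 CPM in the 8 others. The semaphorin co-receptors Nrp1 (-6.41) and Nrp2 (-5.14) and the protocadherin Pcdh9 (-4.55, or -5.26 without cell 11) were lower. Of 20 cytoskeletal genes 1 was called higher and 4 lower, the higher one being Ina, an intermediate filament, and Map2, a dendritic protein, having a ratio of -4.65.

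Genes of the axotomy response were described for 8 members, of which 0 were called higher and 2 lower. Atf3, a transcription factor switched on by nerve injury, was 0 to 33.9 CPM in Mrgprd-high cells and 0 to 75.7 CPM in the others. Gap43, a growth cone protein, was 8.33 to 42.1 CPM in Mrgprd-high cells and had a lowest of 0, a median of 654 and a highest of 1370.3 CPM in the others, where both Th-led cells and cell 3 were as low. Hspb1, a small heat shock protein, was 11.3 to 144 CPM in Mrgprd-high cells and 34.7 and 101 CPM in the Mrgpra3-led cells, but 642 CPM or more in the other 10 cells.

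Calls of the genes named above depended on which cells were compared. Of 106 that were called, 31 lay under the limit against the 3 other cells low in glial transcripts, 23 of them higher and 8 lower in the comparison with all 12. The higher ones were Cd24a (1.20), Cd55 (1.12), Ctxn3 (1.48), Ggta1 (1.67), Gna14 (0.83), Grik1 (1.88), Htr4 (1.64), Ina (0.73), Kcng3 (1.45), Kcnip2 (1.06), Mrgpra6 (0.78), Mrgpra9 (0.91), Mrgprb5 (1.91), P2rx3 (1.55), Plcb3 (0.97), Prkca (1.25), Prkcd (1.16), Rab27b (1.34), Rgs3 (1.70), Scn11a (0.36), Synpr (1.12), Trpa1 (1.06) and Trpc6 (0.96). The lower ones were Apoe (-0.56), Bdnf (1.92), Calca (-1.24), Kcna1 (-0.17), Ldhb (0.04), Nefh (0.29), Ntrk2 (-1.23) and Trpv1 (-1.92). With cell 5 counted as Mrgprd-high 9 lay under the limit, namely Calca (-1.67), Cdh11 (1.83), Gfra3 (-1.23), Mrgpra6 (1.81), Mrgprx1 (0.70), Oprm1 (-1.95), P2ry2 (-0.68), Pde1c (-1.79) and Rgs7 (1.89). With medians 12 did, all of them lower, namely Adora2b (0.75), Bdnf (0.02), Calb1 (0.00), Calca (-1.90), Gfra3 (-1.10), Hapln4 (0.00), Mrgprb4 (-0.57), Mrgprx1 (-0.04), P2ry1 (-1.02), Penk (0.00), Th (-0.79) and Trpv1 (-0.11). When other cells with totals below the lowest Mrgprd-high total were left out, 19 lost the call, 15 of them higher and 4 lower. Among the higher ones were P2rx3 (1.59), Cd55 (1.96), Grik1 (1.94), Gna14 (1.65), Scn11a (1.08) and Trpa1 (1.77). Those lower were Bdnf (-1.16), Calca (-1.83), Kcna1 (-1.65) and Nefh (-1.84). All cells left out were Calca-led or Nefh-led, so depth and kind cannot be told apart.

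The Mrgprd-high cells resembled each other more than they resembled the other 12 cells. Over log2(CPM + 1) of the 9211 genes, Pearson's r between pairs of them was 0.861 to 0.909 with a median of 0.885 over 15 pairs. Their median r was 0.756 with Mrgpra3-led, 0.676 with Th-led, 0.610 with Calca-led and 0.547 with Nefh-led cells. It was 0.851 with the Mrgprd-high cells of the SNT side at day 3 and 0.832 with that of the control side at day 7. No r was computed within the other kinds, so closeness cannot be called particular to Mrgprd-high cells. These correlations run across genes of cells that share a procedure and differ in glial transcripts, and are a description. For the 123 genes higher without overlap, the highest other cell was Mrgpra3-led in 49 and Th-led in 32, though each kind holds 2 of the 12 cells. It was Calca-led in 34 and Nefh-led in 8. For the 70 genes lower without overlap, the lowest other cell was Mrgpra3-led in 36.

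Within the 6 cells, the median coefficient of variation was 0.214 over the 3885 genes at 50 CPM or more. Lifr was among the genes that varied least. Cell 13 held the highest value for 34 of the 100 genes that varied most, against 10 to 18 for each of the other 5 cells. They included genes of the early response to stimulation. Dusp1, a phosphatase of that response, was 269 CPM in cell 13 and 0 to 33.6 CPM in the others, and Jun, a transcription factor, 237 against 20.6 to 88.2 CPM. Scn4b, a sodium channel beta subunit, was 545 CPM in cell 13 and 228 CPM in cell 8, and at most 67 CPM in the rest. Oprl1, the nociceptin receptor, was 283 CPM in cell 13 and 0 to 84.6 CPM in the others.

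The genes whose levels ranked most like Mrgprd over the 18 cells, among 4024 genes averaging 50 CPM or more, were found by Spearman's correlation. Among the 10 were Mrgprb5 (0.909), Ctxn3 (0.909), Cadm1 (0.875), Lrrc59 (0.875), Nt5e (0.875), Acbd4 (0.873), Igsf3 (0.873), Ldb2 (0.866) and Htr4 (0.858). Nt5e, an ectonucleotidase that turns AMP into adenosine, was 102 to 300.0 CPM in Mrgprd-high and 0 to 241 CPM in other cells, and Cadm1, an adhesion protein, 1275 to 1903 against 243 to 1125 CPM. These ranks rest on 18 cells of 1 sample and mostly on the step between the 2 divisions.

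Mrgprd-high cells of the other sets, which the rule did not use here, were set against their own others. The limit of 100 CPM found 3 Mrgprd-high cells among 41 SNT-side day-3 cells (1718 to 2013 CPM), 1 among 14 control-side day-7 cells (1588 CPM), and none among 33 SNT-side day-7 cells or the 4 control-side day-3 cells that the authors removed as outliers. In both day-7 sets every cell below the limit was listed at 0. The 3 SNT-side cells had Atf3 of 4.68, 22.5 and 22.9 CPM, whereas 30 of the 38 other SNT-side day-3 cells were at 100 CPM or more. Of the 123 genes higher without overlap 118 (95.9%) were also higher in these 3 cells than in their own 38 others, where 49.7% of all genes were, and of the 70 lower genes 65 (92.9%) were also lower, where 50.3% of all genes were. Mrgprd, which chose the cells, is among the 123. By the measure that picked these genes fewer repeated, since ranges did not overlap within the SNT side for 39 of the 123 and 8 of the 70, against 111 (1.205%) higher and 25 (0.2714%) lower of all 9211 genes. The SNT-side others include axotomised cells, so that comparison is not the same contrast.

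Single genes departed from this. Lpar3 was 544, 369.7 and 569.9 CPM in the 3 SNT-side cells, but at 0 in the day-7 cell, which had Prkcq at 365 CPM and Lpar5 at 35.8 CPM. Mrgprb5 was 287, 147 and 89.9 CPM on the SNT side and 11.9 CPM in the day-7 cell. Mrgpra3 reached 859.9 CPM in SNT-side cell 16, which also carried Mrgprd at 2013 CPM, while the other Mrgprd-high cells of all sets were at 134 CPM or below. Sdc1 was 106 to 192 CPM in the 3 SNT-side cells, within the range of the control-side cells, but lower than the mean of their own others, with a log2 ratio of -1.88. The day-7 cell came from another strain, C57BL/6, and from longer reads, and is 1 cell.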

How the data were processed

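Single DRG neurons were profiled by Smart-seq2 in the authors' study, and 18 control-side day-3 cells were used here, with the other kept cells for comparison. Reads had been mapped by the authors with bowtie2 and quantified over RefSeq exons by RSEM after ribosomal RNA was set aside, and 2 tables, with and without outliers, were deposited under the name TPM. The submitters' processing notes name CASAVA 1.8.2 and the build mm9. The deposited values are expected counts, since they sum to a different total in each cell (277390.5 to 1368842 in these 18) and 61.7% to 84.3% of values above 0 in a cell are whole numbers. Symbols of 27 genes that the larger table holds as dates were taken from the smaller one. The 6 columns of pooled neurons were not used.

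CPM was computed as value divided by the cell's total. Genes with 10 CPM or more on average were described by the log2 ratio of mean CPM + 1 and by overlap of ranges over cells, with Python 3.11.15, numpy 2.4.6, pandas 2.3.3 and scipy 1.17.1. Plots were made in matplotlib 3.10.9. The ratio step was tested on simulated counts with 1 spread for all genes and no cell kinds or glial RNA. That checks the calculation only and not the differences reported here. No test between the 2 divisions was run, because no animal is named and each group is 1 sample. The limit of Dixon's test served only to flag values. The reads carry no molecular identifiers, so the limit of 3 counts covers counting error only. The text names genes of 28 lists and the 15 largest ratios in each direction with 50 CPM or more in the higher group and no overlap, and the 10 genes that rank most like Mrgprd. Members, lists and rules were chosen with earlier results of these data known. Single genes named as examples were chosen after their values were seen. A few genes that these rules pick are not reported here. Gene positions came from GENCODE M21 and promoter windows from RefSeq, both GRCm38, and no coordinate of the mm9 files was used. Alternatives were other Mrgprd limits, all cells, medians, another pseudocount, other filters, size factors, thinning, another ratio limit and leaving out each cell. Added after the values were seen were comparisons with other cells low in glial transcripts (under 1000 CPM), without the Mrgpra3-led cells (500 CPM or more) and without other cells below the lowest Mrgprd-high total.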

Additional observations from a re-analysis of the deposited data

Results flagged for a closer look

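In the 6 Mrgprd-high cells 130 values were examined (126 genes of the text, the total, genes above 0, and 2 glial sums). For 36, the highest or lowest cell stood apart by more of the range than the 95% limit of Dixon's test for 6 values. For independent values of 1 normal distribution, chance passes that limit in about 1 of 20 groups. These values are cells of 1 sample, and many genes were chosen for their ratios. That rate therefore does not apply here, and nothing is read from the count of 36. Genes at 0 in all 6 cells, such as Kit, Htr3a and Scn1a, are counted in the 130 but could not be flagged. Counts near 0 pass the limit easily, since 1 cell above 0 among 5 at 0 is enough.

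Cell 21 was the high cell for the largest number. Sdc1 was at 350.2 CPM against 70.2 to 169 in the other 5, and Stom at 102 against 16.1 to 41.8 CPM. The rest were genes that are low in these cells. Ngfr was 15.2 CPM against 0 to 3.2, Adcyap1 23 against 0 to 2.21, Plxna4 8.15 against 0 to 1.06, Ndrg2 6.79 against 0 to 1.06, Pde1c 5.43 against 0 to 1.64, Nrp2 2.77 against 0 to 0.82 and Lphn1 2.72 against 0 to 0.82 CPM. Fbxo2 (8.15 CPM), Gfra3 (5.43), Fbxo44 (4.07), Nfib (2.72) and Asic3 (1.36) were above 0 in cell 21 only. Cell 21 also had the highest glial sum of the 6, 368 CPM, and the lowest total, and their part in these values was not tested.

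Cell 13 was the low cell for Lpar3, with 335 CPM against 509 to 597. It was the high cell for Jun, 237 against 20.6 to 88.2 CPM, Oprl1, 283 against 0 to 84.6 CPM, Nefm, 1036 against 601 to 762 CPM, and Tuba4a, 21.2 against 0 to 7.151 CPM, and the only one above 0 for Sv2b (1.19 CPM). Cell 11 was high for Nefh, 83.6 against 41.9 to 54 CPM, Trpv1, 32.8 against 0 to 10.7 CPM, Pcdh9, 11.3 against 0 to 4.07 CPM, and Adora2b, 6.78 against 0 to 1.64 CPM, and alone above 0 for Kcnh2 (1.01 CPM).

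Cell 8 was high for Gnb4, 535 against 363 to 422 CPM, and alone above 0 for Asic1 (3.179 CPM), Stard10 (2.11) and Chrnb4 (1.06). Cell 6 was high for Pvrl1, 177 against 56 to 95.4 CPM, and alone above 0 for P2ry2 (2.68 CPM). Cell 2 was high for Chrna7, 12.3 against 0 to 4.52 CPM, and Shisa4, 4.92 against 0 to 1.06 CPM, and alone above 0 for Penk (1.64 CPM), Syt2 (0.902) and Ptgir (0.82).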

How the results depend on the processing

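No paired analysis was possible because the comparison of the divisions used no test and the numbers of the cells only count them. Against the reported 117 genes called higher and 662 lower, and 123 higher and 70 lower without overlap, the following settings moved a count by over 1.5 times. A Mrgprd limit of 50 CPM, which moves cell 5 across, left 49 higher and 42 lower genes without overlap. Including the 4 outlier cells left 28 lower genes without overlap. Medians in place of means called 293 higher. A pseudocount of 10 called 67 higher and 286 lower, no filter 178 and 1315, and a mean of 50 CPM or more 63 and 189, with 46 lower genes without overlap. A log2 limit of 1 called 503 and 1150. Leaving out each cell gave 108 to 143 genes called higher, 596 to 689 called lower, 124 to 176 higher without overlap and 71 to 112 lower without overlap, with the last moved over 1.5 times by cell 10 alone. Size factors, thinning and a limit of 200 CPM moved no count that far, and the genes called higher made up 15.02% of calls in the report, 32.7% with medians and 30.4% at a log2 limit of 1.

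Of the comparisons added after the values were seen, the other cells low in glial transcripts gave 227 genes called lower (of 8750 that passed the filter in those cells), 385 higher without overlap and 282 lower without overlap, and the share called higher was 31.8%. Without the Mrgpra3-led cells there were 179 genes called higher, 249 higher without overlap and 202 lower without overlap. Without the other cells below the lowest Mrgprd-high total there were 438 called lower and 129 lower without overlap. Fewer cells make gaps between ranges more likely, and the cause was otherwise not tested.

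Over 402 genes of the lists and naming rules, 10 values of called genes reversed. These were Mrgprx1 at a limit of 50 CPM (0.70), Adora2b (0.75), Bdnf (0.0237), Cdh9 (1.67) and Rarres1 (0.19) with medians, and, against other cells low in glial transcripts, Bdnf (1.92), Cntn1 (0.27), Kcnip1 (0.66), Ldhb (0.0363) and Nefh (0.29). Of 106 called genes of the text, 7 lost the call when 1 cell was left out, namely Adcyap1, Bdnf and Mrgprx1, as given above, and Htr4, Ina, Rgs7 and Scn11a, which lie at the limit of 2 and fell to 1.91, 1.88, 1.89 and 1.91 at the lowest. The fold ratios of 40 genes moved over 1.5 times without 1 cell, the largest being Adcyap1, Kcnc4 and Trpc6 without cells 1, 3 and 10. Calls of the same 106 genes were lost in 31 against other cells low in glial transcripts, 19 without other cells of low total, 15 at a pseudocount of 10, 12 with medians, 9 at a limit of 50 CPM, 4 each with outliers, size factors and thinning, and 1 without the Mrgpra3-led cells. With 1 sample per side and day, and 6 cells, differences between animals were not measured.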
